A study of Sus scrofa with 12 samples.

Results

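The transcripts of 9 actin genes that act in moving the meiotic spindle were followed through in vitro maturation (IVM) of porcine oocytes. The genes were taken by name: the formin FMN2, the nucleators SPIRE1 and SPIRE2, the ARP2/3 subunits ARPC2, ARPC3, ACTR2 and ACTR3, the cofilin CFL1 and the profilin PFN1. All 9 were matched to a pig Ensembl identifier, out of 31908 identifiers in each library. Of these 9 genes, 6 averaged 1 FPKM or more across the 12 libraries and were tested together with all 7013 genes of that level. FPKM is a fragment count per transcript length and per library size. The means of CFL1 and PFN1 were under that level in every stage, and SPIRE2 was listed at 0 in every library.

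The study asked how oocytes change their metabolism as they mature, and profiled their transcriptome at 3 times. Cumulus-oocyte complexes were aspirated from ovaries of prepubertal gilts obtained at a slaughterhouse, and the oocytes were stripped of cumulus cells after 0h, 22h or 46h of IVM. The medium held porcine follicular fluid, epidermal growth factor and the gonadotropins PMSG and hCG, so that the 22h and 46h oocytes had been cultured with these agents and time in culture cannot be told apart from them. No genetic change is named. Each of the 3 groups has 4 libraries, and each library was made from a pool of oocytes by SMART-Seq2, in which an oligo-dT primer starts the cDNA at the poly(A) tail. The design text places the middle time at 24h, whereas the sample labels give 22h, which is used here. The labels do not say whether the 4 replicates of a stage came from separate collections, so p-values measure the spread between these samples, which may be technical. A lower FPKM cannot be told apart from a larger amount of other RNA in the library or from a shorter poly(A) tail. Likewise, a higher FPKM cannot be told apart from a smaller amount of other RNA or from a longer tail. The words fall and rise below refer to FPKM only.

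In oocytes, the spindle forms near the centre of the cell and has to reach the cortex before the first polar body is extruded. A cytoplasmic network of actin filaments does this work: FMN2 and the SPIRE proteins cooperate to start and elongate straight filaments, the ARP2/3 complex grows branches from existing filaments near the cortex, cofilin severs old filaments, and profilin hands actin monomers to formins. The fully grown oocyte transcribes little, so that a transcript present at the start of maturation is mostly stored, translated or degraded, and the length of its poly(A) tail is regulated through elements in its 3′ UTR.

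Because the tail is where the cDNA starts, the 3′ ends of the members are shown first. They were read from the RefSeq transcripts of Sscrofa11.1, and the last 100 bases of each longest mRNA were searched on the transcript's own strand for the poly(A) signals AATAAA and ATTAAA and for the cytoplasmic polyadenylation elements TTTTAT and TTTTAAT, which mark mRNAs whose tails can be extended during maturation. Neither of these elements contains a poly(A) signal. FMN2, on an unplaced scaffold, and SPIRE1, at chr6:97114531-97114560 (plus strand), hold both kinds of element. Each line below gives 30 bases, 5′ to 3′, with the element in capitals.
FMN2, polyadenylation element: ttagtgtttctaTTTTAATttttctaggat
SPIRE1, polyadenylation element: tccattaaagtcTTTTATtttgaaatttat
ACTR2, poly(A) signal: tttgattcagaaAATAAAatcagatttttc
CFL1, poly(A) signal: aagggaccttcaATTAAAaaagaaaaagac
PFN1, poly(A) signal: tttttttttctgAATAAAaaaagattctaa
The ACTR2 window is at chr3:76691283-76691312 (minus strand), that of CFL1 at chr2:6474983-6475012 (plus strand) and that of PFN1 at chr12:51965538-51965567 (plus strand), all in the 3′ UTR. ACTR2, SPIRE2, CFL1 and PFN1 held a poly(A) signal and no polyadenylation element in the window, and ARPC2 held neither. Over the 5340 tested genes with a 3′ UTR of at least 100 bases, 78.7% held a poly(A) signal, 22.7% a polyadenylation element and 19.3% both. The RefSeq models used for ARPC3, which is marked as partial, and for ACTR3 end at the coding sequence, so that their 3′ ends were not searched. The model of CFL1 is also marked as partial. A match describes these letters only.

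Total FPKM ranged from 697468 to 802184, and 13 mitochondrially encoded protein genes took at most 3.76% of it at 0h, between 8.06% and 12.02% at 22h, and between 12.8% and 16.7% at 46h. The library of 0h replicate 4 stood apart from the other 0h libraries, with r = 0.934 to 0.970 over genes, and results of the 9 genes that rest on it are given with and without it. The number of reads is unknown, so that only the spread over replicates measures precision. Of 8 matched oocyte markers, all were above 1 FPKM in each stage, and their summed level lay between 12238 and 17819 FPKM at 0h, between 15170 and 22403 FPKM at 22h, and between 3675 and 6853 FPKM at 46h. Of 18 matched cumulus and granulosa markers, 3 (VCAN, STAR and FST) had means above 1 FPKM in each stage, and VCAN made up most of the sum, which was 46.4 to 88.8 FPKM at 0h, 55.8 to 86.1 FPKM at 22h, then 118 to 143 FPKM at 46h. VCAN passed as higher at 46h versus 22h (log2 fold change 0.96; limma, adjusted p = 0.00885) and versus 0h (1.18, adjusted p = 0.0015), and STAR and FST did not pass. The other 15 matched markers did not exceed 0.39 FPKM in any library, and LHCGR, INHA, LUM, COL1A1 and KRT18 were listed at 0 in all of them, which is not read as absence. The part of these marker levels in the results was not tested.

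Among the 6 tested members, ARPC3 fell at every step of maturation, ACTR3 fell between 22h and 46h, and SPIRE1 rose between 0h and 22h, whereas FMN2, ARPC2 and ACTR2 did not pass the test in any comparison. To pass, a gene needed an adjusted p under 0.05 (limma on log2(FPKM + 1), Benjamini-Hochberg over the 7013 genes) together with a fold change over 1.5. At 22h versus 0h, 1 member was higher and 1 lower, where 26.7% of all genes tested passed, 7.84% as higher and 18.9% as lower. At 46h versus 22h, 2 members were lower and 0 higher, where 42.4% passed, 9.87% as higher and 32.6% as lower. At 46h versus 0h, 2 members were again lower and 0 higher, where 55.9% passed, 16.8% as higher and 39.1% as lower. Thus 33.3% of the tested members passed in each comparison, which is above the share of all genes in the first and below it in the other two. The comparisons share libraries and are given side by side for that reason. Without 0h replicate 4, or after median-of-ratios scaling, 2 members were higher and 2 lower at 46h versus 0h, where 18.4% and 38.1% of all genes were higher and lower without that library and 27.1% and 34.2% after that scaling.

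**Figure D1:**
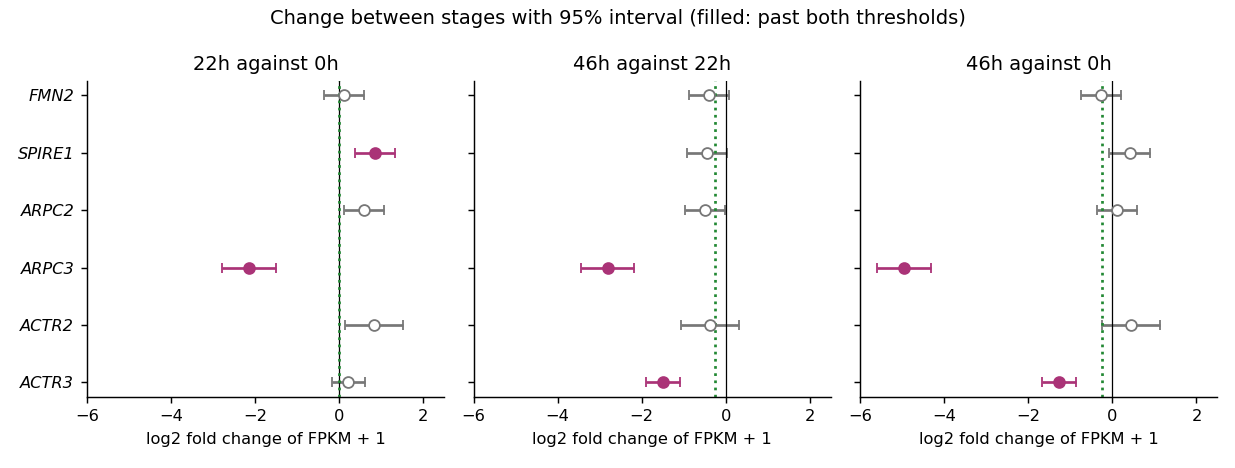
Change of the 6 tested genes between stages. The x axis is the log2 fold change of FPKM + 1 with its 95% interval from limma, filled points passed both thresholds, and the dotted line is the median of all 7013 genes tested. ARPC3 lies at -2.15, -2.81 and -4.96 in the 3 panels, and the other members lie between -1.49 and 0.85.

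The split between higher and lower calls depends on how the libraries are scaled. Over all genes the median log2 fold change was, at 46h versus 0h, -0.25 in FPKM as deposited, 0.00 after median-of-ratios scaling and 0.37 after quantile normalization. Higher genes made up 30.1%, 44.2% and 61.7% of all calls in these settings. Between 22h and 46h the shares were 23.3%, 42.1% and 59.5%. At 22h versus 0h they were 29.4%, 30.5% and 48.2%, and 39.5% in TPM without the mitochondrially encoded genes. The falls of ARPC3 and ACTR3 and the rise of SPIRE1 at 22h passed under each of these scalings.

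FMN2 (ENSSSCG00000038556, on an unplaced scaffold), the formin that builds the cytoplasmic filaments in oocytes, was a low-level transcript at every stage. Its levels were 1.70, 0.62, 1.37 and 2.52 FPKM in 0h replicates 1 to 4, 2.33, 1.65, 1.18 and 1.63 FPKM at 22h, and 1.49, 0.84, 0.95 and 0.90 FPKM at 46h. The stages overlapped in every comparison, and the widest spread was at 0h. The log2 fold change was 0.12 (SE 0.22, 95% interval -0.35 to 0.59) at 22h versus 0h, with adjusted p = 0.706 by limma. At 46h versus 22h it was -0.39 (-0.86 to 0.08; adjusted p = 0.154), and at 46h versus 0h it was -0.28 (-0.75 to 0.19; adjusted p = 0.289), and these values turned to 0.12 and 0.42 after quantile normalization. With a pseudocount of 0.1 in place of 1, the change was 0.23 at 22h versus 0h. It was then -0.65 at 46h versus 22h and -0.42 at 46h versus 0h, and did not pass in any comparison. With the pseudocount of 1, the changes from 0h moved with the 0h libraries. At 22h versus 0h the value was 0.29 without 0h replicate 4, the highest, and -0.08 without 0h replicate 2, the lowest, and it was 0.01 without 22h replicate 1. For 46h versus 0h it was -0.10 without 0h replicate 4 (adjusted p = 0.669) and -0.48 without 0h replicate 2, under the fold threshold (adjusted p = 0.0475). Among the genes tested, the mean level of FMN2 stood at percentile 7.80 at 0h, 14.2 at 22h and 17.0 at 46h.

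FMN2 was not the most abundant formin transcript. Its closest relative FMN1 had 4.68 to 16.6 FPKM at 0h, 3.58 to 9.34 at 22h, then 1.75 to 3.17 at 46h. FMN1 passed as lower at 46h versus 0h, with a log2 fold change of -1.45 (SE 0.34; limma, adjusted p = 0.00171), and at -0.80 after quantile normalization (adjusted p = 0.0297). FMN2 made up 16.2% ± 5.5 (SD, n = 4) of the summed FPKM of FMN1 and FMN2 at 0h, 25.2% ± 4.5 at 22h and 32.7% ± 1.2 at 46h, a share that also rises when FMN1 alone falls. The 46h libraries, at 31.9% to 34.5%, lay above all 0h libraries, at 11.7% to 24.0%. The formin with the highest level was DAAM1, at 67.7 to 121 FPKM over the 12 libraries, with a log2 fold change of 0.01 at 46h versus 0h.

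SPIRE1 (ENSSSCG00000039769, chr6:96934023-97114591), which carries the actin-binding repeats that work together with FMN2, rose over the first 22h of culture and did not pass afterwards. Its levels were 6.60, 4.79, 7.64 and 12.21 FPKM at 0h, 15.11, 13.78, 14.78 and 13.24 FPKM at 22h, and 10.22, 10.14, 13.20 and 7.82 FPKM at 46h. All 22h libraries lay above all 0h and all 46h libraries, whereas 0h and 46h overlapped. The mean was 1.82-fold higher at 22h than at 0h, with a log2 fold change of 0.85 (SE 0.22; limma, adjusted p = 0.0104). Without 0h replicate 4, the highest 0h library, it was 1.07. From 22h to 46h the log2 fold change was -0.44 (95% interval -0.92 to 0.04; adjusted p = 0.118), and it was -0.15 after median-of-ratios scaling and 0.03 after quantile normalization. At 46h versus 0h it was 0.41 (adjusted p = 0.125), and 0.23 without 0h replicate 2 (adjusted p = 0.362). It passed at 0.63 without 0h replicate 4 (adjusted p = 0.00939) and at 0.71 after median-of-ratios scaling (adjusted p = 0.00362). It also passed at 1.04 after quantile normalization.

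SPIRE2 (ENSSSCG00000002635, chr6:211480-246109), the second SPIRE gene, was listed at 0 in all 12 libraries. SPIRE1 was therefore the only SPIRE transcript with a value in these files. Genes used by every cell were also listed at or near 0, ACTB among them, so that a listed 0 is not read as absence. The ratio of FMN2 to SPIRE1 within a library was 0.129 to 0.258 at 0h, 0.0798 to 0.154 at 22h, then 0.0720 to 0.146 at 46h. These ranges overlap. The exact two-sided permutation test gave p = 0.0571 for 22h versus 0h and for 46h versus 0h (adjusted p = 0.0914).

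**Figure D2:**
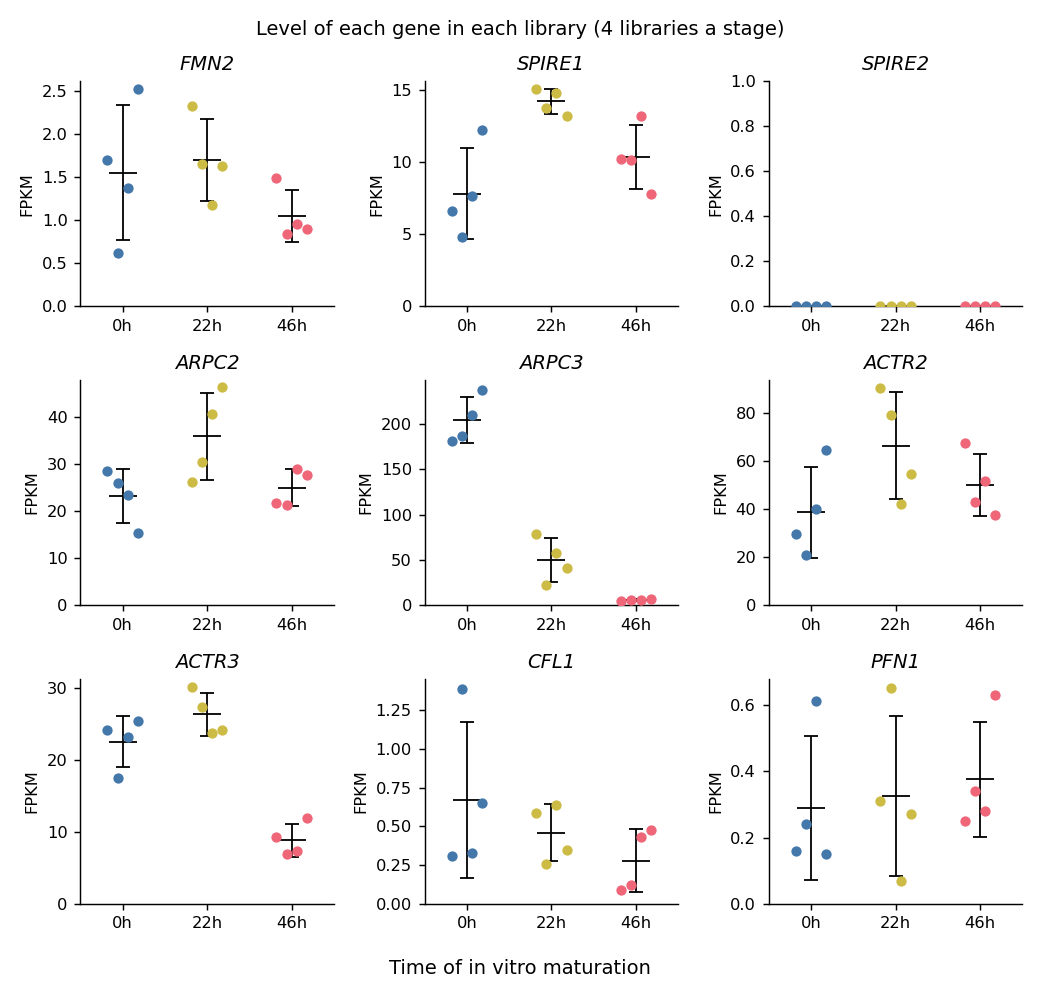
Level of each of the 9 genes in FPKM (y axis, linear and from 0, with its own scale per gene) at 0h, 22h and 46h. Points are the 4 libraries of a stage in replicate order, the bar is the mean and the whiskers 1 SD. ARPC3 lies between 182 and 237 FPKM at 0h and between 4.29 and 7.08 FPKM at 46h, SPIRE1 is highest at 22h, and SPIRE2 is at 0.

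ARPC3 (ENSSSCG00000009821, chr14:31814382-31823452), a small subunit of the ARP2/3 complex, was the most abundant of the 9 transcripts before maturation and lost nearly all of its level by the end. Its levels were 181.67, 187.03, 210.64 and 237.34 FPKM at 0h, 78.28, 21.93, 57.91 and 40.95 FPKM at 22h, and 4.29, 5.34, 5.83 and 7.08 FPKM at 46h. No library of a stage overlapped with one of another stage. The mean was 4.10-fold lower at 22h than at 0h, with a log2 fold change of -2.15 (SE 0.30; limma, adjusted p = 0.000139). From 22h to 46h it was 8.83-fold lower (log2 fold change -2.81, adjusted p = 2.72e-06). From 0h to 46h it was 36.2-fold lower (log2 fold change -4.96, 95% interval -5.60 to -4.32, adjusted p = 4.05e-09). Among the genes tested, ARPC3 stood at percentile 93.8 at 0h, 83.0 at 22h and 53.5 at 46h.

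ACTR3 (ENSSSCG00000015710, chr15:20104808-20171721), the actin-related protein ARP3 that forms the base of a new branch together with ARP2, did not pass at 22h versus 0h and fell afterwards. Its levels were 24.23, 17.45, 23.21 and 25.42 FPKM at 0h, 30.17, 27.36, 23.71 and 24.26 FPKM at 22h, and 9.24, 6.91, 7.37 and 11.95 FPKM at 46h. The 46h libraries lay below every library of the other stages, and 0h and 22h overlapped. The log2 fold change was 0.22 (95% interval -0.17 to 0.62; limma, adjusted p = 0.383) at 22h versus 0h. The mean was 2.97-fold lower at 46h than at 22h (log2 fold change -1.49, SE 0.185, adjusted p = 1.33e-05) and 2.55-fold lower than at 0h (log2 fold change -1.27, adjusted p = 3.33e-05). The fall at 46h versus 0h was -0.97 after median-of-ratios scaling and -0.68 after quantile normalization, and it passed in both.

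ACTR2 (ENSSSCG00000008358, chr3:76691275-76729269), which encodes the partner protein ARP2, had the highest mean of the set at 22h and at 46h. Its levels were 29.50, 20.76, 40.14 and 64.50 FPKM at 0h, 90.41, 79.10, 42.11 and 54.48 FPKM at 22h, and 67.70, 43.13, 51.71 and 37.76 FPKM at 46h. All stages overlapped. The log2 fold change was 0.82 (SE 0.32; limma, adjusted p = 0.0659) at 22h versus 0h, -0.37 (adjusted p = 0.356) at 46h versus 22h and 0.45 (adjusted p = 0.241) at 46h versus 0h. The value of 0h replicate 4 was within the 22h range. Without that library the change was 1.10 at 22h versus 0h (adjusted p = 0.0094) and 0.73 at 46h versus 0h (adjusted p = 0.0388), and both passed. At 22h versus 0h it also passed without 22h replicate 3, at 1.02 (adjusted p = 0.0352), and was 0.57 without 0h replicate 2 (adjusted p = 0.187). After median-of-ratios scaling it passed at 0.83 for 22h versus 0h (adjusted p = 0.0420) and at 0.77 for 46h versus 0h (adjusted p = 0.0295), and after quantile normalization at 0.94 and 0.93. It was 0.20 at 46h versus 0h without 0h replicate 2 (adjusted p = 0.599). At 46h versus 22h the change was -0.06 after median-of-ratios scaling and -0.01 after quantile normalization. It was -0.21 without 22h replicate 1 and -0.57 without 22h replicate 3, and did not pass in any of these settings.

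ARPC2 (ENSSSCG00000016185, chr15:120297122-120328795), which with another subunit forms the core that contacts the mother filament, did not pass in any comparison as tested here. Its levels were 28.55, 25.90, 23.52 and 15.25 FPKM at 0h, 26.24, 30.46, 40.64 and 46.40 FPKM at 22h, and 21.78, 21.32, 28.95 and 27.76 FPKM at 46h. The stages overlapped, with the highest values in 22h replicates 3 and 4. The log2 fold change of 0.60 (95% interval 0.13 to 1.08) at 22h versus 0h missed the threshold with adjusted p = 0.0529 by limma. The same value passed when the filter was raised to a mean of 5 FPKM (adjusted p = 0.0462). It passed at 0.73 after quantile normalization, at 0.69 in TPM without mitochondrially encoded genes, at 0.74 without 22h replicate 1 (adjusted p = 0.0248) and at 0.71 without 0h replicate 1 (adjusted p = 0.0430), and was 0.42 without 0h replicate 4 (adjusted p = 0.116). From 22h to 46h it was -0.49 (adjusted p = 0.0865), and -0.62 without 22h replicate 1, where it passed (adjusted p = 0.0396). The same change was -0.18 after median-of-ratios scaling and -0.03 after quantile normalization. At 46h versus 0h it was 0.12 (adjusted p = 0.671), -0.07 without 0h replicate 4, 0.43 after median-of-ratios scaling and 0.70 after quantile normalization, where it passed (adjusted p = 0.0203).

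Because these subunits work in a single complex, their levels were also compared within each library, where the scaling of the libraries cancels. ARPC3 was 3.68 to 9.01 times ACTR2 at 0h, 0.277 to 1.38 times at 22h, then 0.0634 to 0.188 times at 46h. The ratio of ARPC3 to ACTR3 was 7.498 to 10.7 at 0h, 0.802 to 2.59 at 22h, then 0.464 to 0.791 at 46h. ACTR2 was 1.19 to 2.54 times ACTR3 at 0h, 1.78 to 2.997 times at 22h, then 3.16 to 7.33 times at 46h. The ratios of ARPC3 to ACTR2 and ACTR3 were lower in all libraries of a stage than in any library of the stage before, and that of ACTR2 to ACTR3 was higher in all 46h libraries than in any earlier one.

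With 4 libraries against 4 there are 70 arrangements, and 0.0286 is the smallest p that an exact permutation test can give. This value was reached in 13 of 24 tests of 8 pairs, each with libraries that did not overlap, and the adjusted p was 0.0527 in these, so that 0 of the 24 passed 0.05 after Benjamini-Hochberg adjustment. The differences in log2 ratio between 46h and 0h were -5.66 for ARPC3 to ACTR2, -3.83 for ARPC3 to ACTR3 and 1.83 for ACTR2 to ACTR3. For ARPC2 to ACTR2 they were -0.34 with overlapping libraries (exact permutation p = 0.571).

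Together with the other matched subunit genes ARPC1A, ARPC1B, ARPC5 and ARPC5L, 8 ARP2/3 transcripts were compared within each library. ARPC4 and ACTR3B were not analysed here. The summed level of the 8 was 329 to 432 FPKM at 0h, 257 to 313 FPKM at 22h, then 123 to 154 FPKM at 46h. ARPC3 made up 54.8% ± 2.3 (SD, n = 4) of it at 0h, 16.6% ± 7.1 at 22h and 4.06% ± 0.91 at 46h. ACTR2 made up 10.1% ± 3.7, 23.0% ± 8.2 and 35.7% ± 8.1 at these stages. These shares sum to 100%, so that a lower share of ARPC3 raises the summed share of the others by construction. The share of ARPC5L fell as well, from 7.41% ± 0.30 at 0h to 2.24% ± 0.66 at 46h. Neither ACTR2 nor ARPC2 passed the test at 46h versus 0h. ARPC5 made up 6.41% ± 1.29, 12.5% ± 2.2 and 23.5% ± 3.0, and its libraries did not overlap between stages.

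**Figure D3:**
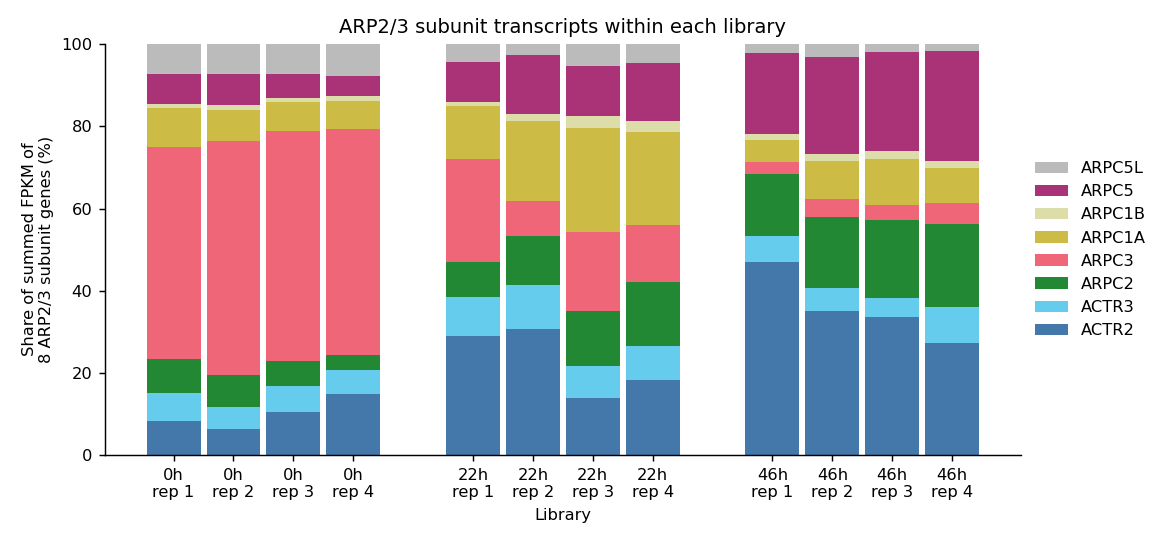
Share of each of 8 ARP2/3 subunit genes in their summed FPKM (y axis, percent), with 1 bar for each library. ARPC3 takes 51.5% to 56.9% at 0h, 8.52% to 25.0% at 22h, then 2.97% to 5.14% at 46h, while ACTR2, ARPC2 and ARPC5 take larger shares of a smaller sum at 46h than at 0h.

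The other subunits did not move as a block. ARPC1A, a subunit with a propeller fold, lay between 24.4 and 33.7 FPKM at 0h and rose to between 40.2 and 76.8 FPKM at 22h (log2 fold change 0.97, SE 0.24; limma, adjusted p = 0.00689) and then fell to between 7.69 and 17.0 FPKM at 46h (-2.21 against 22h, adjusted p = 3.30e-06). ARPC5L, an alternative to ARPC5 in the complex, fell at both steps. It lay between 23.9 and 33.9 FPKM at 0h, between 6.80 and 15.9 FPKM at 22h and between 2.20 and 3.87 FPKM at 46h, with a log2 fold change of -2.82 at 46h versus 0h (adjusted p = 1.02e-07). ARPC5, another small subunit, was 21.0 to 26.1 FPKM at 0h, 29.9 to 41.7 FPKM at 22h, then 28.3 to 37.1 FPKM at 46h. It passed as higher at 22h versus 0h (log2 fold change 0.61, SE 0.16, adjusted p = 0.0105), and was under the fold threshold without 0h replicate 3 or 4 or 22h replicate 4, at 0.58, 0.56 and 0.54. From 22h to 46h it was -0.15 (adjusted p = 0.470), and it turned to 0.17 after median-of-ratios scaling and to 0.32 after quantile normalization. At 46h versus 0h it was 0.46 (adjusted p = 0.0212), under the fold threshold, and passed at 0.78 after median-of-ratios scaling and at 1.02 after quantile normalization. Of the 4 other subunits, 2 were higher and 1 lower at 22h versus 0h (7.84% and 18.9% of all genes), 3 were lower at 46h versus 22h (32.6% of all genes), and 2 were lower at 46h versus 0h (39.1% of all genes). The third of those lower at 46h versus 22h, ARPC1B, was at -0.99 (adjusted p = 0.00356), a call lost after quantile normalization at -0.48 (adjusted p = 0.0872).

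CFL1 (ENSSSCG00000012974, chr2:6471558-6475019), the non-muscle cofilin, and PFN1 (ENSSSCG00000017907, chr12:51962642-51965570), the ubiquitous profilin, were at low levels. CFL1 was at 0.31, 1.39, 0.33 and 0.65 FPKM at 0h, 0.59, 0.26, 0.64 and 0.35 FPKM at 22h, and 0.09, 0.12, 0.43 and 0.48 FPKM at 46h. PFN1 was at 0.16, 0.24, 0.61 and 0.15 FPKM at 0h, 0.31, 0.65, 0.07 and 0.27 FPKM at 22h, and 0.25, 0.34, 0.28 and 0.63 FPKM at 46h. The stages overlapped for both genes in every comparison. The exact two-sided permutation test gave p = 0.514, 0.229 and 0.171 for CFL1 at 22h versus 0h, 46h versus 22h and 46h versus 0h, and p = 0.83, 0.771 and 0.457 for PFN1.

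In the listed values the cofilin family was mostly DSTN, which encodes destrin, the actin-depolymerizing relative of cofilin. DSTN made up between 99.2% and 99.96% of the summed FPKM of CFL1, CFL2 and DSTN in the 12 libraries. This share rests in part on the listed level of CFL1, which was under the filter. As with ACTB, such a low listing is not read as absence, so the share does not show that destrin takes the place of cofilin. Its levels were 5389, 5434, 3525 and 1174 FPKM at 0h, 1854, 2805, 3578 and 4092 FPKM at 22h, and 5352, 5424, 6910 and 6922 FPKM at 46h. All 46h libraries lay above all 22h libraries, and 0h overlapped with 22h. The log2 fold change at 46h versus 22h was 1.05 (SE 0.40; limma, adjusted p = 0.0441), a call lost without 0h replicate 3, without any of 22h replicates 1, 2 and 3, and without any of the 46h replicates (adjusted p between 0.0539 and 0.130). It was also lost under the replicate block (adjusted p = 0.0735), with no filter (0.139), in TPM (0.0792) and in TPM without mitochondrially encoded genes (0.0523). At 46h versus 0h the log2 fold change was 0.88 (adjusted p = 0.0714), and it passed at 1.21 after median-of-ratios scaling (adjusted p = 0.0270) and without 0h replicate 1 or 2, at 1.11 and 1.12. It was 0.38 without 0h replicate 4 (adjusted p = 0.196). For 22h versus 0h it was -0.17 (adjusted p = 0.773), and it passed at -0.67 without 0h replicate 4, the lowest 0h library (adjusted p = 0.0492). CFL2, the muscle type cofilin, was 8.68 to 14.0 FPKM at 0h and 2.49 to 4.45 FPKM at 46h, and passed as lower (log2 fold change -1.45, adjusted p = 9.17e-06), at -0.76 after quantile normalization (adjusted p = 0.00666).

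In order of mean level, ARPC3 led at 0h with 204 ± 25 FPKM (SD, n = 4), apart from ACTR2 with 38.7 ± 18.9 FPKM. ACTR2, ARPC2 and ACTR3 followed at 0h with libraries that overlapped between neighbours, and SPIRE1 and FMN2 lay apart below them. At 22h the order was ACTR2, ARPC3, ARPC2 and ACTR3, all overlapping with the next, and SPIRE1 lay apart at 14.2 ± 0.9 FPKM. At 46h ACTR2 led at 50.1 ± 13.1 FPKM and ARPC2 was next at 25.0 ± 4.0 FPKM, apart from each other, whereas SPIRE1, ACTR3 and ARPC3 overlapped with their neighbours between 10.3 and 5.64 FPKM. ARPC3 thus moved from the first to the fifth place.

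**Figure D4:**
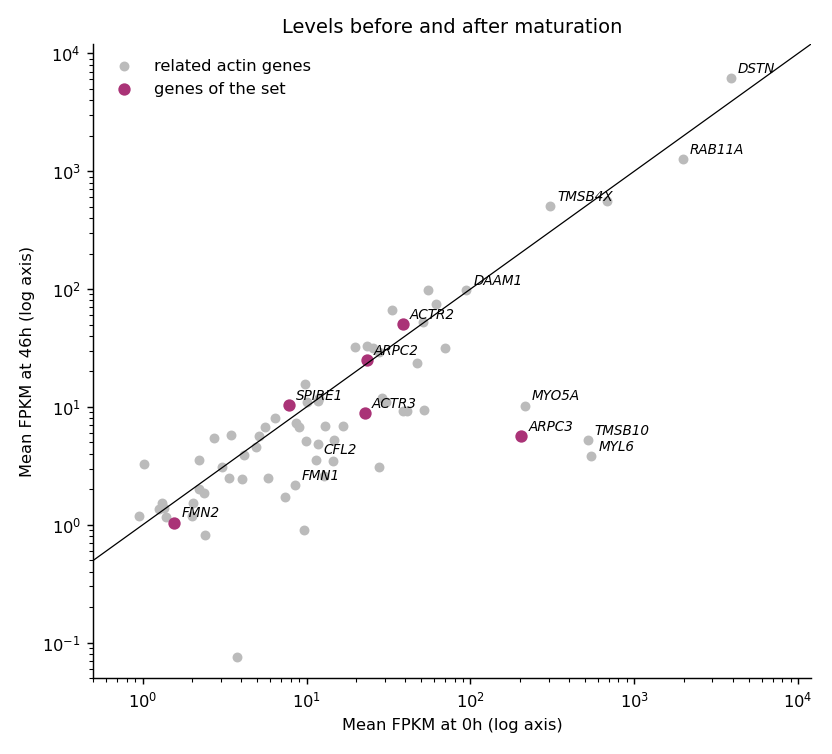
Mean FPKM at 46h (y axis, log scale) against mean FPKM at 0h (x axis, log scale) of the tested genes of the set and of related actin genes, with the line of equal levels. ARPC3 lies far under the line near TMSB10, MYL6 and MYO5A, ACTR3 lies under it, and ACTR2, ARPC2 and SPIRE1 lie close to it.

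Of 113 related actin genes in lists by role, 100 were matched and 65 tested. At 22h versus 0h 7 were higher and 8 lower, at 46h versus 22h 1 was higher and 26 lower, and at 46h versus 0h 7 were higher and 23 lower. Their median log2 fold changes were 0.11, -0.31 and -0.20, beside -0.00, -0.26 and -0.25 for all genes tested. Those that passed were 23.1%, 41.5% and 46.2% of the genes tested in the lists, beside the 26.7%, 42.4% and 55.9% of all genes. Without 0h replicate 4, 11 were higher and 12 lower at 22h versus 0h, which is 35.4% of the genes tested in the lists, beside 31.0% of all genes in the same fit. After median-of-ratios scaling, 14 were higher and 22 lower at 46h versus 0h (55.4%, beside 61.3% of all genes), and 8 were higher and 19 lower at 46h versus 22h (41.5%, beside 45.5%). Quantile normalization gave 25 higher and 17 lower at 46h versus 0h (64.6%, beside 66.5% of all genes), 12 and 16 at 46h versus 22h (43.1%, beside 47.2%), and 11 and 8 at 22h versus 0h (29.2%, beside 31.0%).

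Among the genes that start or release branches, NCK2, an adaptor that recruits the activator N-WASP, lay between 14.7 and 45.6 FPKM at 0h and rose to between 44.7 and 74.3 FPKM at 22h (log2 fold change 0.94, SE 0.27; limma, adjusted p = 0.0169) and was 9.32 to 12.1 FPKM at 46h. Of 14 tested activators, 2 were higher and 0 lower at 22h versus 0h (7.84% and 18.9% of all genes), and 1 was higher and 3 were lower at 46h versus 0h (16.8% and 39.1% of all genes). GMFG, which takes branches off filaments, was 1.09 to 8.24 FPKM at 0h, the highest in replicate 4. At 22h it was at 1.43 and 0.63 FPKM in replicates 1 and 2 and listed at 0 in the others. At 46h it was listed at 0 in 3 libraries and at 0.30 FPKM in replicate 2. GMFG reached the filter of 1 FPKM only through its 0h level, so that its calls as lower are a description. Of 4 tested inhibitors, GMFG is left out of the count for that reason. Among the others, only CORO1C passed at 22h versus 0h, as lower (log2 fold change -0.97), where 18.9% of all genes were lower. At 46h versus 0h again only CORO1C passed, as lower (-1.76), where 39.1% of all genes were lower.

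The deepest falls by 46h among the related genes were those of MYL6, TMSB10 and MYO5A. MYL6, a light chain of non-muscle myosin, was 351 to 853 FPKM at 0h, 192 to 291 FPKM at 22h, then 1.91 to 5.14 FPKM at 46h (log2 fold change -6.79 at 46h versus 0h, SE 0.29; limma, adjusted p = 1.93e-10). TMSB10, a thymosin that sequesters monomers, was 329 to 726 FPKM at 0h, 149 to 313 FPKM at 22h, then 4.18 to 6.67 FPKM at 46h (-6.33, adjusted p = 1.78e-10). MYO5A, a motor that carries vesicles along filaments, was 167 to 251 FPKM at 0h, 139 to 159 FPKM at 22h, then 8.70 to 11.9 FPKM at 46h (-4.25, adjusted p = 5.15e-11). None of these genes overlapped between 22h and 46h. The change of MYO5A at 22h versus 0h, -0.51, was under the fold threshold (adjusted p = 0.0258), and it passed at -0.62 without 0h replicate 4 (adjusted p = 0.00519).

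The rises by 46h were smaller. TWF1, which binds monomers and caps filaments, lay between 29.2 and 35.8 FPKM at 0h and between 54.0 and 76.1 FPKM at 46h (log2 fold change 0.98, SE 0.18; limma, adjusted p = 0.000329). RDX, which links filaments to the membrane, lay between 45.4 and 60.1 FPKM at 0h and between 88.4 and 115 FPKM at 46h (0.83, adjusted p = 0.000261). RAB11FIP2, an adaptor between RAB11 vesicles and myosin V, lay between 0.74 and 1.49 FPKM at 0h and between 2.82 and 4.46 FPKM at 46h (1.07, adjusted p = 0.000211). ANLN, the cytokinesis scaffold, was highest in the middle, at 11.8 to 19.7 FPKM at 22h beside 6.27 to 10.5 FPKM at 0h (0.87, adjusted p = 0.00424) and 5.99 to 8.84 FPKM at 46h.

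**Figure D5:**
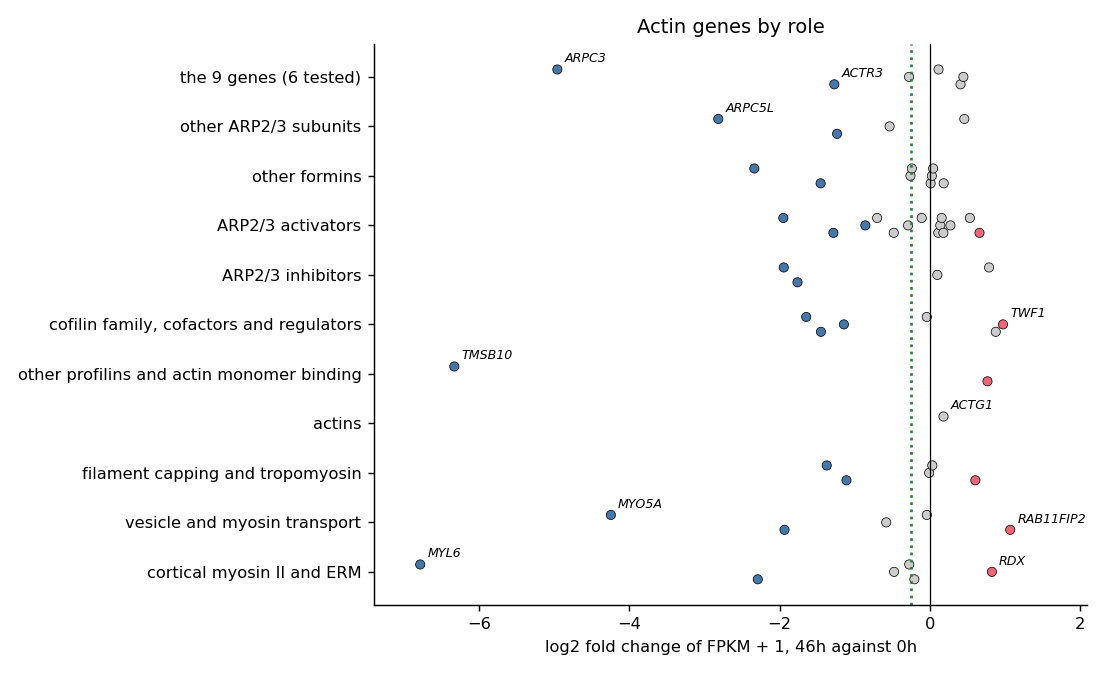
log2 fold change of FPKM + 1 at 46h versus 0h (x axis) of tested genes by role (y axis), with red for higher, blue for lower and grey for not passed. The dotted line is the median of all genes tested, -0.25, and the lowest points are MYL6 at -6.79, TMSB10 at -6.33, ARPC3 at -4.96 and MYO5A at -4.25.

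By role, the 8 tested formins outside the set gave 0 calls at 22h versus 0h, where 26.7% of all genes passed, and 2 lower at 46h versus 0h, FMN1 and FMNL3, where 39.1% of all genes were lower. FMNL3 was 4.08 to 17.7 FPKM at 0h and 0.48 to 1.23 FPKM at 46h (log2 fold change -2.34, SE 0.32; limma, adjusted p = 1.71e-05). With 46h levels near 1 FPKM this value depends on the pseudocount, and it was -3.15 with a pseudocount of 0.1 and -1.69 after quantile normalization, and passed in both. Of 6 tested genes of cortical myosin II and membrane linkers, 5 were lower at 46h versus 22h, where 32.6% of all genes were lower, and 1 was higher and 2 were lower at 46h versus 0h (16.8% and 39.1% of all genes). Of the 5 lower at 46h versus 22h, MYL12A at -0.59 and MYLK at -0.59 were close to the fold threshold. After median-of-ratios scaling 3 were lower (26.3% of all genes), without MYL12A and MYLK. After quantile normalization 2 were lower (19.1% of all genes), without ANLN too. RDX newly passed as higher in these settings, at 0.76 and 0.70, where 19.2% and 28.1% of all genes were higher. Leaving out 22h replicate 2 left 3 lower (32.9% of all genes), also without MYL12A and MYLK. Of 5 tested capping and tropomyosin genes, 0 passed at 22h versus 0h (26.7% of all genes), and 1 was higher and 2 were lower at 46h versus 0h (16.8% and 39.1% of all genes). The counts by role moved with the scaling. After quantile normalization 8 of the 14 activators were higher and 2 lower at 46h versus 0h (41.0% and 25.5% of all genes), and 3 of the 8 formins were higher and 2 lower. Without 0h replicate 4, 2 capping and tropomyosin genes were lower at 22h versus 0h (18.7% of all genes), and 1 formin was higher (12.3% of all genes).

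The filament itself is built of actin, and ACTG1, the gamma isoform, was 21.2 to 86.1 FPKM at 0h, 47.1 to 76.3 FPKM at 22h, then 42.5 to 66.4 FPKM at 46h. Its log2 fold change at 46h versus 0h was 0.18 (SE 0.33; limma, adjusted p = 0.652). ACTB, the beta isoform, was listed at 0.00 to 0.70 FPKM over the 12 libraries, so that ACTG1 held at least 98.7% of their sum. The coding sequences of these isoforms are nearly identical, and how fragments shared by both were divided is uncertain.

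The genes most alike to FMN2 and ARPC3 over the 12 libraries were looked up as a description. They are the 3 with the highest r among all named genes tested, a choice that by itself favours a high r. For FMN2 these were the deubiquitinase USP1 (Pearson r = 0.935), the meiotic recombination gene MSH5 (r = 0.926) and the ether lipid enzyme AGPS (r = 0.918), which had means of 43.8, 1.89 and 19.5 FPKM at 0h and of 33.8, 1.495 and 16.2 FPKM at 46h. For ARPC3 they were SPC24 (r = 0.998), CFAP298 (r = 0.997) and SNX22 (r = 0.997). The kinetochore gene SPC24 had means of 237, 41.8 and 2.41 FPKM at 0h, 22h and 46h, and CFAP298, a gene of motile cilia, had means of 172, 49.9 and 7.40 FPKM. The points share the 3 stages, which alone give a high r to genes that fall at every step, as ARPC3 does. FMN2 did not fall at every step, its levels were low and its libraries overlapped between stages.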

How the data were processed

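The authors trimmed the reads, aligned them to Sscrofa11 with STAR and deposited 1 FPKM value per Ensembl gene and library, estimated with RSEM. The strand setting is not given in the sources used here. The values have 2 decimals and were taken as they are. Identifiers were named from a table of gene symbols, which named 15029 of 31908; 135 of 152 listed symbols were matched and the others were not analysed here. The members and lists were chosen with earlier results of these data known.

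Genes that averaged 1 FPKM or more across the 12 libraries were tested as log2(FPKM + 1) with limma 3.58.1 in R 4.3.3 (lmFit, eBayes with an intensity trend), with stage as the only factor, two-sided, and Benjamini-Hochberg adjustment over 7013 genes. Thresholds were an adjusted p of 0.05 and a fold change of 1.5. The study tested counts with the same thresholds; counts were not used here. Genes under the filter and ratios within libraries were compared by exact permutation tests. Named related genes are the 3 largest rises and falls past the thresholds in each comparison, with ACTB and ACTG1. FMN1, FMNL3, DAAM1, CFL2, ARPC1B, ARPC5, MYL12A, MYLK and CORO1C were named after their values were seen. The results of 1 list of related genes are counted in the totals and not reported here. This fit was first tested on simulated data. No pair of libraries was identical over all genes. Alternatives were a pseudocount of 0.1, no filter, a mean of at least 5 FPKM, 4 other scalings, only the groups compared, no trend, a replicate block, each library left out and a fold of 2. 3′ ends came from RefSeq Sscrofa11.1, read with pysam 0.24.0. Further tools were scipy 1.17.1, pandas 2.3.3, numpy 2.4.6 and matplotlib 3.10.9 in Python 3.11.15.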

Additional observations from a re-analysis of the deposited data

Results flagged for a closer look

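In 66 groups of 4 libraries of the named genes, the highest or lowest library on the log2(FPKM + 1) scale was compared with the others by its gap to the nearest relative to the range of the group (Dixon's test at the 95% level), and 4 groups exceeded it, where chance gives about 1 in 20. None was in a member of the set on this scale. On FPKM itself, a scale added after seeing the data, 5 groups exceeded it, with FMN2 at 1.49 FPKM in 46h replicate 1 and ACTG1 at 76.33 FPKM in 22h replicate 1 added and ARPC5L no longer among them. ARPC5L stood at 6.80 FPKM in 22h replicate 2, under the other 22h libraries. GMFG was at 0.30 FPKM in 46h replicate 2, with the other 46h libraries listed at 0. RAB11FIP2 stood at 4.46 FPKM in 46h replicate 1, above the others. RDX stood at 45.35 FPKM in 0h replicate 2, under the others.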

How the results depend on the processing

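The 18 log2 fold changes of the tested members gave 393 values under the alternatives other than the fold threshold, of which 375 kept their side of the thresholds and their sign where called, 18 newly passed, 0 were lost and 0 reversed. Shares of all genes tested in the same fit stand in brackets. At 22h versus 0h, 2 members passed as reported (26.7%), 3 after median-of-ratios scaling (27.2%; ACTR2 added), 3 with a mean of at least 5 FPKM (31.3%; ARPC2 added), 4 after quantile normalization (31.0%) and 4 in TPM without mitochondrially encoded genes (28.6%; ARPC2 and ACTR2 added in both), and 1, ARPC3, at a fold change of 2 (12.4%), where the SPIRE1 call was lost, with 2 to 3 when each library was left out (22.0% to 31.0%). At 46h versus 0h, 2 passed as reported (55.9%), 4 after median-of-ratios scaling (61.3%; SPIRE1 and ACTR2 added) and 5 after quantile normalization (66.5%; ARPC2 added too), with 2 to 4 when each library was left out (54.6% to 56.5%) and the 4 without 0h replicate 4 (56.5%). At 46h versus 22h leaving out libraries gave 2 to 3 (39.1% to 44.4%). Of the related genes, 15 passed at 22h versus 0h as reported (26.7%), 5 at a fold change of 2 (12.4%), and 13 to 23 when each library was left out (22.0% to 31.0%), the 23 without 0h replicate 4 (31.0%). The cause of these shifts was not tested.

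Deviations of same-numbered replicates correlated between -0.466 and 0.381 over genes. Between 22h and 46h they were 0.381, 0.009, 0.211 and 0.127 for replicates 1 to 4, and replicates 1, 3 and 4 matched their own number best, a hint from the data; with replicate 2 at 0.009 and no label that ties the numbers, the samples were not taken as paired. With the replicate block, 2 members passed in each comparison, and 13, 25 and 30 related genes at 22h versus 0h, 46h versus 22h and 46h versus 0h out of 65, beside 25.7%, 41.8% and 55.5% of all genes. Without read counts, what depth limits in genes under 1 FPKM, CFL1 and PFN1 among them, cannot be given.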
